A study of Apostichopus japonicus with 3 samples.

Results

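Deep aestivation was compared with non-aestivation in the respiratory tree of the sea cucumber Apostichopus japonicus, with 1 poly(A) RNA library for each stage. All isotigs with at least 20 reads summed over the 3 libraries of the study were kept, which gave 10896 of the 20991 isotigs with a read in any library. An isotig is an assembled transcript of the reference transcriptome on which the authors counted reads, and several isotigs can come from 1 gene. The third library, from animals in arousal from aestivation, is given beside the other values and enters no count of differences. Per the labels, 15 or more individuals were taken at each stage, with no genotype, treatment, temperature or age stated, and how their RNA was combined is not stated either. With 1 library per stage no difference has a replicate check. The comparison is between libraries, no p-value is given, and the 95% intervals are exact and cover counting error only.

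Aestivation is a dormancy that some animals enter in hot or dry seasons. In sea cucumbers it brings a stop to feeding, a regression of the gut, little movement and a lowered rate of oxygen uptake, and it ends with arousal as the water cools. The respiratory tree is a pair of branched tubes that open into the hindgut and hang in the coelom. Water is pumped in and out of them by muscle, oxygen crosses their thin wall, and wandering coelomocytes, the immune cells of echinoderms, are found in and around them. Hypometabolic animals are known for reducing costly processes such as protein synthesis, protein breakdown, ion pumping and cell division, and gene ontology (GO) groups for these processes are among those described here.

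The libraries were of similar depth, with 0.941, 0.887 and 0.963 M (1e6) uniquely mapped reads in non-aestivation, deep aestivation and arousal. Levels are in RPKM (reads per kilobase of isotig and 1e6 mapped reads), and 1 read counts for 1.06, 1.13 and 1.04 RPKM where the isotig is 1 kb long. The median isotig compared was covered over 58.2%, 50.48% and 52.38% of its length. The labels give no marker for the stage or for the respiratory tree itself, so the stage names could not be checked against a marker. Muscle, cilia and coelomocyte transcripts, described at the end, were present in both libraries.

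In deep aestivation 1430 isotigs, or 13.1% of those compared, were at least 2-fold higher than in non-aestivation on the scale of log2(RPKM + 0.5), and 2029, or 18.6%, were at least 2-fold lower. The remaining 7437 lay within 2-fold. At 4-fold the counts were 315 higher and 477 lower, at 8-fold 92 and 132, and at 16-fold 40 and 62. The higher isotigs together took 4.83% of the reads of the non-aestivation library, 15.0% of the deep aestivation library and 11.95% of the arousal library. The lower isotigs took 15.0%, 5.04% and 7.33%. The gain of the higher isotigs came to 101829 of every 1e6 reads of a library. In whole-tissue RNA, fewer cells of a type and less RNA per cell cannot be told apart, and every value is a share of its library, not an amount per cell or per gram.

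**Figure D1:**
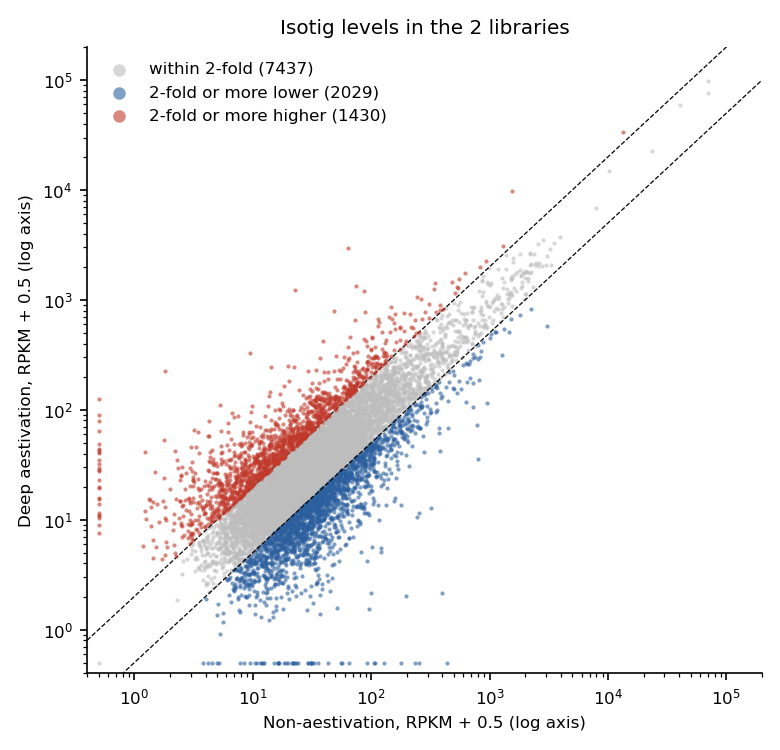
Each point is 1 of the 10896 isotigs, with its RPKM + 0.5 in non-aestivation on the x axis and in deep aestivation on the y axis, both logarithmic, and dashed lines at 2-fold. The 1430 higher isotigs (red) and 2029 lower isotigs (blue) lie on both sides at all levels, and the points along the edges are isotigs with 0 reads in 1 library.

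Most isotigs that were lower in deep aestivation, 1374 of 2029, had a match to a known protein, against 455 of the 1430 that were higher. Of the 5686 isotigs with a protein match 8% were higher and 24.2% lower, with a median log2 ratio of -0.36. Of the 3093 isotigs that also carried a GO term 5.5% were higher and 28.2% lower, with a median of -0.48. Of the 3339 isotigs with an informative protein name, from which named isotigs were drawn, 7.49% were higher and 26.1% lower. Those with a match and no GO term (2593) were in between, with 11% higher, 19.4% lower and a median of -0.20. The 5210 isotigs without a match leaned the other way, with 18.7% higher, 12.6% lower and a median of 0.16. As shares of all reads, the isotigs with a GO term went from 33.7% to 27.9%, and stood at 30.6% in arousal. The isotigs without a match went from 38.4% to 46.3%, and stood at 50.8%.

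The medians kept these signs in every class of length and level. In 5 classes of length, from under 500 bases to 2000 bases or more, the median of matched isotigs lay between -0.41 and -0.26. The median of unmatched isotigs lay between 0.04 and 0.22 in the same classes. In 5 classes of mean RPKM, the matched medians lay between -0.40 and -0.32, and the unmatched medians went from 0.01 below 20 RPKM to 0.39 at 100 to 200 RPKM. The species of the best match was known for most matched isotigs. Among 2669 isotigs whose best match was in the purple sea urchin Strongylocentrotus purpuratus 23.6% were lower and 6.67% higher, and among 850 matched in the acorn worm Saccoglossus kowalevskii 25.2% and 7.65%. The 54 isotigs matched to earlier Apostichopus japonicus sequences were more even, with 8 lower and 7 higher.

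**Figure D2:**
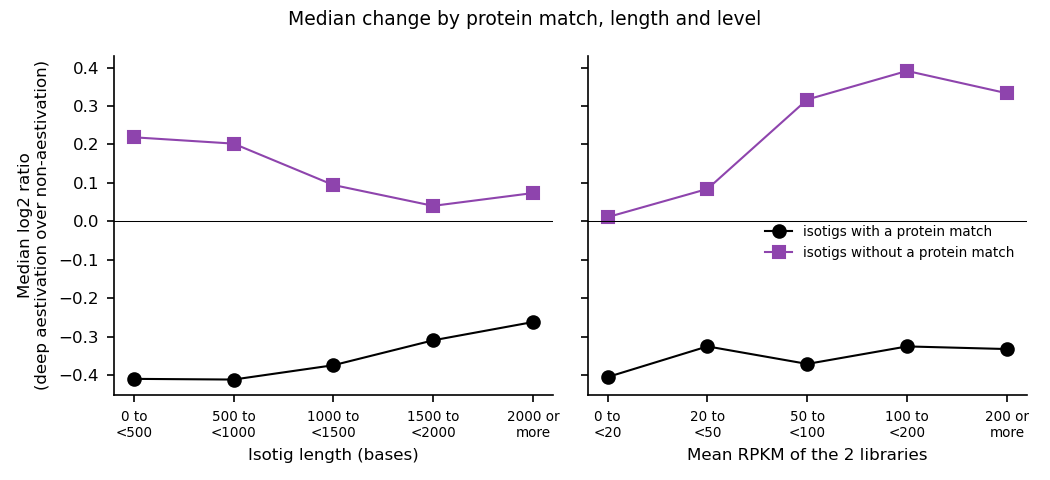
Median log2 ratio of deep aestivation over non-aestivation by class of isotig length in bases (left) and by class of mean RPKM (right), for isotigs with a protein match (circles) and without one (squares). The matched isotigs lie below 0 and the unmatched above 0 in all 5 classes of both panels.

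Most GO terms in the files had a median below 0, as did the whole set of isotigs with a GO term, of which 28.2% were lower and 5.5% higher. In the process column 2306 isotigs carried 1504 terms, of which 65 had at least 20 isotigs. The median was below 0 in 64 of these, in 37 of 39 terms of the function column and in all 43 of the component column. Against the median of all isotigs with a GO term, -0.48, the terms were divided, with 36 of 65, 22 of 39 and 28 of 43 below it. The lowest process term was S phase, the stage of the cell cycle in which DNA is copied, with 18 of 25 isotigs lower, 0 higher and a median of -1.40. Cell cycle arrest followed with 17 of 27 lower (median -1.22), aerobic respiration with 15 of 21 (-1.19) and proteasomal ubiquitin-dependent protein catabolic process with 15 of 28 (-1.04), each with 0 higher. In cellular protein metabolic process 16 of 37 were lower and 1 higher (-0.93). The terms share members, since 1 isotig can carry many of them, so they are not separate observations.

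At the other end of the process column stood terms of development and gene regulation. Cell differentiation had a median of 0.00, with 7 of 30 isotigs lower and 3 higher, and transcription, DNA-dependent had a median of -0.02, with 11 of 64 lower and 7 higher. Multicellular organismal process (-0.15, 3 lower and 3 higher of 31) and chordate embryonic development (-0.17, 2 lower and 1 higher of 23) were next. Scaling with TMM or median-of-ratios factors moves the median of all isotigs up by 0.11 or 0.12, which would put the transcription term above 0. Relative to all isotigs with a GO term, these terms had the highest medians of the process column.

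In the function column the lowest term was the oxidoreductases acting on CH-OH groups with NAD or NADP, which hold the malate and isocitrate dehydrogenases, with 11 of 20 lower and a median of -1.25. Endopeptidase activity followed with 22 of 38 lower (-1.12). A large term that the files give only by its identifier had 113 of 242 isotigs lower and 5 higher (-0.95). Translation factor activity had 16 of 37 lower (-0.93), and coupled ATPase activity 15 of 34, with 0 higher (-0.74). The highest medians were those of DNA binding (0.08, 10 lower and 4 higher of 34), hydrolase activity (0.01, 13 lower and 5 higher of 74) and nucleic acid binding transcription factor activity (-0.09, 13 lower and 6 higher of 49). In the component column mitochondrial part was lowest with 18 of 35 lower (-1.02), then cell fraction with 20 of 49 (-0.88) and protein complex with 67 of 165 (-0.80). Extracellular region part was highest (-0.16), with 4 of 28 lower and 1 higher, and small ribosomal subunit had only 1 of 21 lower.

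To describe named pathways, terms were joined into 56 GO groups. Among the groups with 10 or more isotigs the lowest medians were those of the proteasome, aerobic respiration with the citric acid cycle, amino acid metabolism, tRNA aminoacylation, endopeptidases, microtubule processes and nucleotide metabolism, each with at least as many isotigs lower as not. The highest medians among them were those of transcription factor activity, the extracellular region, transcription and the ribosome. An isotig counts in each group that holds it, and the isotig of cyclin dependent kinase 2, for example, counts in 10, ion transport among them.

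**Figure D3:**
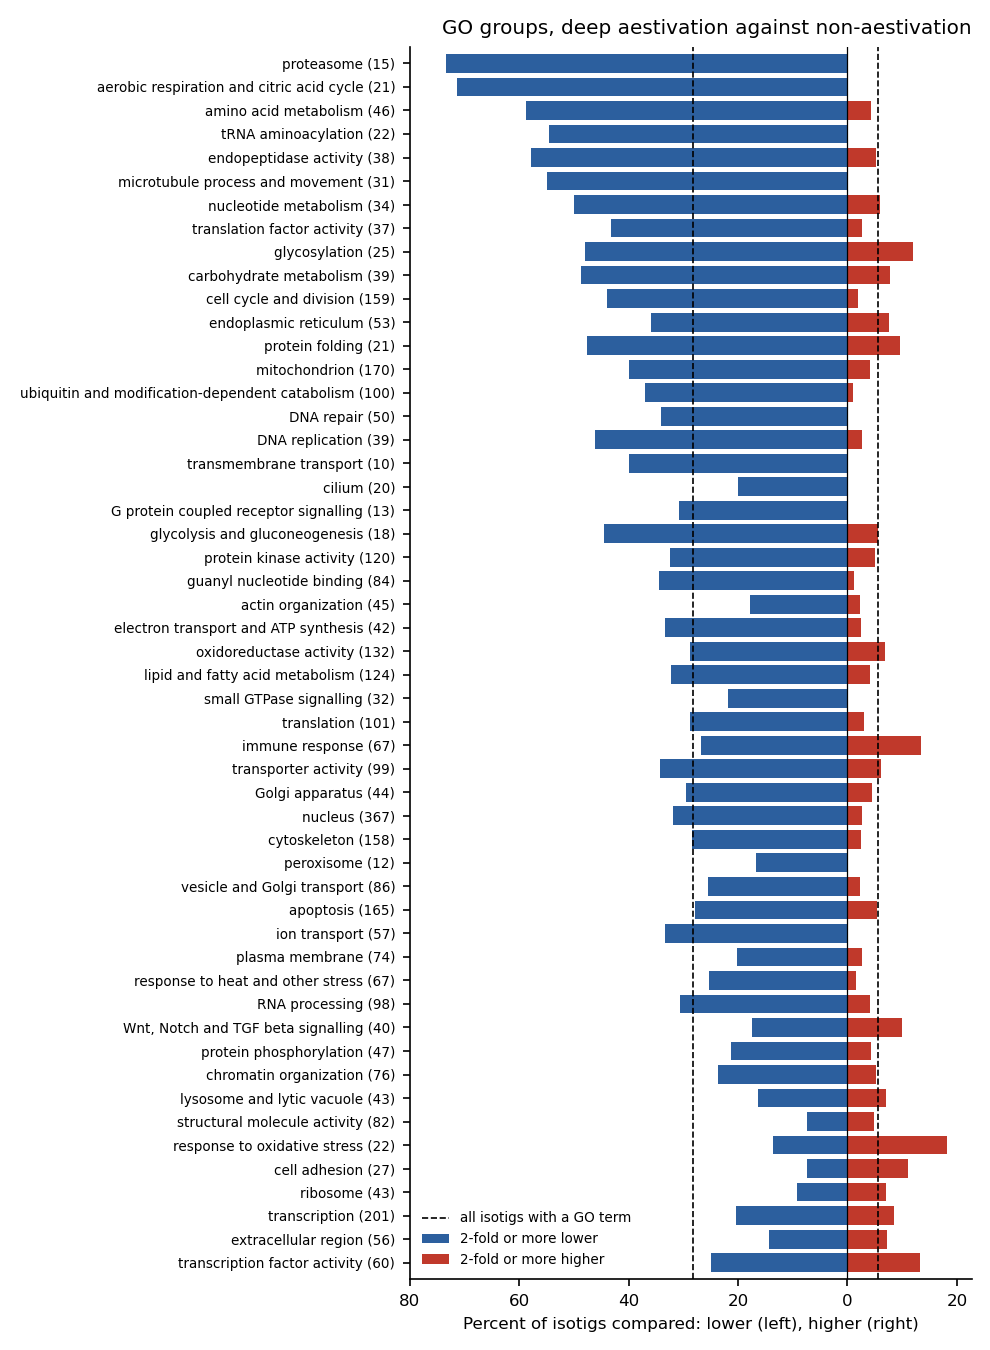
For each GO group with 10 or more isotigs (number in brackets) the percent of isotigs at least 2-fold lower in deep aestivation extends to the left and the percent at least 2-fold higher to the right, ordered by median log2 ratio, lowest at the top. The dashed lines mark the 28.2% lower and 5.5% higher among all isotigs with a GO term. The proteasome stands at 73.3% lower and the ribosome at 9.3%.

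Enzymes of aerobic energy metabolism were lower. In aerobic respiration and the citric acid cycle, which oxidises acetyl groups to carbon dioxide in mitochondria, 15 of 21 isotigs were lower and 0 higher, 20 of 21 had a ratio below 1, and the median log2 ratio was -1.19. With TMM factors 12 were lower and with ratios centred on matched isotigs 8. Cytosolic malate dehydrogenase (isotig18460), which interconverts malate and oxaloacetate, is in the group by its terms, though its name places it outside mitochondria. It had 330, 116 and 156 reads, always in the order non-aestivation, deep aestivation, arousal, and was 2.68-fold lower in deep aestivation (2.16 to 3.34). Isocitrate dehydrogenase (isotig13396) had 83, 21 and 47 reads (3.72-fold lower, 2.29 to 6.33). Mitochondrial aconitase (isotig17219), which turns citrate into isocitrate, had 193, 86 and 74 reads. All 3 enzymes were highest in non-aestivation. Members that stayed within 2-fold were the small cytochrome b subunit of succinate dehydrogenase (isotig18908), with 123, 94 and 88 reads, and a 2-oxoglutarate dehydrogenase match (isotig23160), with 57, 53 and 38.

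Electron transport and ATP synthesis had 14 of 42 isotigs (33.3%) lower and 1 higher, with a median of -0.59. Among all isotigs with a GO term 28.2% were lower and 5.5% higher, with a median of -0.48. The reads of the electron transport group summed to 0.94 times the non-aestivation rate. Its most abundant member, the mitochondrially encoded cytochrome c oxidase subunit 1 (isotig07060), had 4914, 6802 and 7113 reads. The nuclear-encoded beta subunit of ATP synthase (isotig13404), which carries the catalytic sites, had 1395, 506 and 765 reads (2.60-fold lower, 2.35 to 2.88), and its alpha subunit (isotig13551) 1378, 528 and 796 (2.46-fold lower, 2.22 to 2.72). An iron-sulfur subunit of NADH dehydrogenase (isotig09425), part of the first complex of the respiratory chain, had 57, 16 and 33 reads (3.36-fold lower, 1.90 to 6.26). The other isotig of that name was called higher, with 14 reads in deep aestivation, and the 2 isotigs summed gave a ratio of 0.52. Mitochondrial creatine kinase (isotig15353), which makes phosphocreatine from mitochondrial ATP, had 54 reads in non-aestivation and 0 in both other libraries, at least 16.96-fold lower against a floor of 3 reads. Over all isotigs of the mitochondrion 68 of 170 were lower and 7 higher.

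Carbohydrate metabolism had 19 of 39 isotigs lower and 3 higher (median -0.90), and glycolysis and gluconeogenesis 8 of 18 lower and 1 higher (-0.64). The member called higher by glycolysis terms was glycine N-methyltransferase-like (isotig19436), which is an enzyme of methyl-group metabolism and no glycolytic enzyme. Acly protein-like (isotig17942), a match to ATP citrate lyase, which makes cytosolic acetyl-CoA for lipid synthesis, had 143, 13 and 15 reads and was 10.4-fold lower (5.87 to 19.9), with a summed ratio of 0.17 over 3 isotigs. A gamma catalytic subunit of protein phosphatase 1 (isotig19628) had 86, 18 and 24 reads (4.50-fold lower, 2.69 to 7.95). The most abundant carbohydrate isotig, lysosomal beta-galactosidase (isotig13623), had 173, 250 and 212 reads, a ratio of 1.53.

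Lipid and fatty acid metabolism was mixed by weight. Of 124 isotigs 40 (32.3%) were lower and 5 higher (median -0.57), beside 28.2% lower and 5.5% higher among all isotigs with a GO term. The group's summed reads were 1.02 times those of non-aestivation. Apolipoprotein B (isotig13070), the large protein that carries lipid in circulating particles, held much of that sum, with 3006, 5258 and 1488 reads and a ratio of 1.86 (1.77 to 1.94). A member of subfamily D of ATP-binding cassette transporters (isotig20595), peroxisomal carriers of fatty acids, had 57, 6 and 19 reads (8.95-fold lower, 3.87 to 25.4). Longevity assurance-like protein 1 (isotig14582), a ceramide synthase family name, had 51, 9 and 17 reads (5.34-fold lower, 2.60 to 12.3). Outside this group, cholesterol 24-hydroxylase-like (isotig16006), a cytochrome P450 that hydroxylates cholesterol, had 141, 386 and 219 reads (2.90-fold higher, 2.39 to 3.55). Oxysterol-binding protein-like protein OSBPL10 (isotig20631) had 20, 148 and 256 reads (7.85-fold higher, 4.90 to 13.2).

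Amino acid metabolism had 27 of 46 isotigs lower and 2 higher (-1.17). The 2 higher members belong to the methionine cycle. Betaine-homocysteine S-methyltransferase 1-like (isotig13345), which remethylates homocysteine to methionine, had 83, 858 and 787 reads, and glycine N-methyltransferase-like, which uses S-adenosylmethionine to methylate glycine, had 29, 218 and 180. Methionine adenosyltransferase (isotig14883), the enzyme that makes S-adenosylmethionine, had 304, 706 and 425 reads and was 2.46-fold higher (2.15 to 2.83). These 3 transcripts were lowest in non-aestivation and highest in deep aestivation. Other enzymes of carbon and methyl-group metabolism were lower. Methylenetetrahydrofolate reductase (isotig13139), which makes the methyl folate used by the other route to methionine, had 261, 44 and 36 reads (5.59-fold lower, 4.05 to 7.88). The first enzyme of serine synthesis, phosphoglycerate dehydrogenase-like (isotig13269), had 212, 8 and 13 reads. Protein arginine N-methyltransferase 1-like (isotig17158), a user of S-adenosylmethionine, had 137, 26 and 59 reads (4.97-fold lower, 3.25 to 7.87).

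Other enzymes of nitrogen metabolism were lower as well. Aspartate aminotransferase 2 (isotig13106), the mitochondrial enzyme that moves amino groups between glutamate and aspartate, had 490, 108 and 155 reads (4.28-fold lower, 3.47 to 5.32). Argininosuccinate synthase-like (isotig14156), a urea cycle enzyme, had 91, 27 and 36 (3.18-fold lower, 2.05 to 5.08). The terms of this group also take in proteasome subunits, so its count overlaps with that of the proteasome. Nucleotide metabolism had 17 of 34 isotigs lower and 2 higher (-1.02). The small subunit of ribonucleotide reductase (isotig17962), which makes the deoxynucleotides for DNA, had 146, 20 and 56 reads (6.88-fold lower, 4.30 to 11.6), and the large subunit match (isotig11055) had 31, 3 and 8. Ribose-phosphate pyrophosphokinase 1 (isotig15000), the entry to purine and pyrimidine synthesis, had 82, 23 and 22 (3.36-fold lower, 2.09 to 5.59).

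Within protein synthesis the counts differed between factors and ribosomes. All 22 isotigs of tRNA aminoacylation, the loading of amino acids on tRNAs, had a ratio below 1, with 12 lower and 0 higher and a median of -1.13. Glycyl-tRNA synthetase (isotig13130) had 255, 103 and 144 reads (2.33-fold lower, 1.85 to 2.96) and phenylalanyl-tRNA synthetase beta chain (isotig06913) 38, 2 and 13. Tyrosyl-tRNA synthetase (isotig13185) stayed near its level, with 56, 46 and 53. Translation factors had 16 of 37 lower and 1 higher, and their reads summed to 0.44 times the non-aestivation rate. Initiation factor eIF4A (isotig13817), an RNA helicase, had 666, 207 and 272 reads (3.03-fold lower, 2.59 to 3.56), and the alpha subunit of eIF2 (isotig13377) 144, 47 and 72 (2.89-fold lower, 2.06 to 4.10).

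Most ribosomal components stayed within 2-fold. Of 43 ribosome isotigs 4 were lower and 3 higher, 36 lay within 2-fold, and the sum was 0.91 times that of non-aestivation. Ribosomal protein L13 (isotig20778) had 2744, 2480 and 3695 reads and ribosomal protein S3 (isotig18575) 1543, 2109 and 2753. The isotig named S17 (isotig23929) was the exception with most reads, with 469, 208 and 442 (2.13-fold lower, 1.80 to 2.51), and TMM factors put it within 2-fold. The ribosomal P0 protein (L10e/P0) had 93, 0 and 161 reads on isotig10296, at least 29.2-fold lower, but its 2 isotigs summed to a ratio of 0.87, so the difference does not hold over the name.

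Among the groups of protein breakdown and folding the proteasome had the largest share of isotigs lower. The proteasome, the protease complex that degrades ubiquitin-tagged proteins, had 11 of 15 isotigs lower, 0 higher and a median of -1.48, the lowest of the GO groups with 10 or more isotigs. It kept 10 lower isotigs with TMM factors and 8 with centring on matched isotigs. Proteasome subunit alpha type 4 (isotig13339) had 197, 50 and 96 reads (3.71-fold lower, 2.71 to 5.17), the beta 9 subunit (isotig18824) 83, 25 and 54 (3.13-fold lower, 1.98 to 5.11) and PSMD3 (isotig14371), a subunit of the regulatory cap, 144, 42 and 63 (3.23-fold lower, 2.28 to 4.67). Each was lowest in deep aestivation. Valosin-containing protein-like (isotig13297), the ATPase that pulls tagged proteins out of complexes and membranes, had 552, 148 and 192 (3.52-fold lower, 2.93 to 4.24). Ubiquitin and other modification-dependent catabolism had 37 of 100 isotigs lower and 1 higher, beside 28.2% lower and 5.5% higher among all isotigs with a GO term.

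Folding factors had 10 of 21 isotigs lower and 2 higher. Prefoldin 5 (isotig13788), a cochaperone for new actin and tubulin, had 62, 15 and 30 reads (3.90-fold lower, 2.19 to 7.37), and the gamma subunit of the cytosolic chaperonin (isotig21115) 80, 16 and 25 (4.71-fold lower, 2.73 to 8.64). In the endoplasmic reticulum 19 of 53 isotigs (35.8%) were lower and 4 higher, beside 28.2% and 5.5% among all isotigs with a GO term. Folding enzymes and chaperones were among those lower. Peptidyl-prolyl cis-trans isomerase 5 (isotig15929) had 140, 5 and 37 reads, the cochaperone Dnajb11 (isotig15164) 157, 24 and 44 (6.17-fold lower, 3.996 to 9.91) and thioredoxin domain-containing protein 5 (isotig15763), a disulfide isomerase, 194, 45 and 57 (4.06-fold lower, 2.92 to 5.75). Calreticulin-like (isotig15543), with 1344, 587 and 460 reads, and heat shock protein gp96 (isotig13076), with 1334, 614 and 454, passed 2-fold by little and fell within it with TMM factors.

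Some isotigs named for the protein channel of the same organelle were higher, as were some glycosylation isotigs. The Sec61 gamma subunit (isotig02636), part of the channel for new secretory proteins, had 18, 139 and 75 reads (8.19-fold higher, 4.997 to 14.2). Both isotigs of translocon-associated protein gamma were higher, with 32, 78 and 23 reads on isotig07408 and 50, 116 and 99 on isotig07409, each over 8% or less of its length. DAD-1 (isotig16633), a subunit of the oligosaccharyltransferase, had 567, 885 and 869 reads, a ratio of 1.66 (1.49 to 1.84), within 2-fold. DC2 protein-like (isotig09549), another subunit name of that enzyme, had 50, 5 and 24 reads and a summed ratio of 0.34 over its 2 isotigs. Glycosylation as a whole had 12 of 25 isotigs lower and 3 higher. Its higher members included the 2 UDP-N-acetylglucosaminyltransferase isotigs, with 189, 382 and 356 reads on isotig14085 and 128, 245 and 207 on isotig20204. Glutamine fructose-6-phosphate transaminase 1 (isotig13230), which makes the sugar precursor of that transfer, had 184, 39 and 46 (4.45-fold lower, 3.13 to 6.45).

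Many cell division genes were lower. Of 159 cell cycle and division isotigs 70 were lower, 3 higher and 134 had a ratio below 1. Of 39 DNA replication isotigs 18 were lower and 1 higher. At 100 or more reads 23 of 70 and 2 of 6 were lower in these 2 groups. Among all isotigs with a GO term, at the minimum of 20 reads, 28.2% were lower. Cell division cycle 2 (isotig13456), the kinase of mitotic entry, had 178, 42 and 50 reads (3.99-fold lower, 2.84 to 5.73), cyclin dependent kinase 2 (isotig15198) 52, 10 and 3 (4.90-fold lower, 2.46 to 10.8), and the replication helicase subunit Mcm6 (isotig13444) 90, 18 and 44 (4.71-fold lower, 2.82 to 8.31). DNA repair had 17 of 50 lower and 0 higher. Of 17 isotigs with germ cell names 6 were lower, 0 higher and 11 within 2-fold, with a median of -0.28. Their summed level was 577, 383 and 341 reads per 1e6 reads of the library. Among all isotigs with an informative protein name 26.1% were lower and 7.49% higher. Bindin, a sperm protein (61, 0 and 0 reads), and synaptonemal complex protein 1, a meiotic protein (23, 0 and 1), were at 0 in deep aestivation. The isotig named testis potassium dependent sodium/calcium (isotig13597; 79, 4 and 1 reads) was 18.6-fold lower (6.99 to 70.0). Sperm plasma membrane calcium transporting ATPase was lower on isotig13852 (44, 17 and 19) and isotig15338 (19, 6 and 10) and within 2-fold on isotig18034 (37, 38 and 30). Sperm acrosomal protein-like (isotig14766; 35, 40 and 35 reads) and spermatogenesis-associated protein 20 (isotig13603; 31, 36 and 25) were within 2-fold. At 100 or more reads over the 3 libraries 0 of 3 germ cell isotigs were lower, but the 6 lower ones all had fewer reads and could not enter that count. The part of germ cells in the result was not tested.

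Counts for nuclear and RNA-binding groups were near those of all isotigs with a GO term. The nucleus had 117 of 367 isotigs lower and 10 higher. RNA processing had 30 of 98 isotigs lower and 4 higher, and chromatin organization 18 of 76 lower and 4 higher. Several of the lower members are named here. Nucleolar protein 5A (isotig14151), which guides rRNA modification, had 208, 38 and 107 reads (5.16-fold lower, 3.64 to 7.50). Non-histone chromosome protein 2 (isotig09908), another small nucleolar particle protein, had 119, 11 and 44 (10.2-fold lower, 5.50 to 21.0), with 0.15 as the summed ratio of its 2 isotigs. Autoantigen La-like (isotig16121), which binds new polymerase III transcripts, had 155, 24 and 88 (6.09-fold lower, 3.94 to 9.79). Histone deacetylase 1 (isotig10233) had 240, 78 and 152 reads (2.90-fold lower, 2.24 to 3.79) and its partner retinoblastoma binding protein 4 (isotig19191) 118, 33 and 56 (3.37-fold lower, 2.27 to 5.12). Heterogeneous nuclear ribonucleoprotein A/B (isotig13634) had 1461, 672 and 2410 reads, a 2.05-fold lower value that TMM factors put within 2-fold.

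Transcription factor activity had the highest median of the GO groups with 10 or more isotigs. Of its 60 isotigs 15 (25%) were lower and 8 (13.3%) higher, beside 28.2% and 5.5% among all isotigs with a GO term. The median was -0.13, and the summed reads were 1.33 times those of non-aestivation. KLF2/4 (isotig09309), a zinc finger factor of the Krüppel-like family, had 176, 1450 and 1028 reads and gave much of that sum. Sox17-alpha (isotig13607), an HMG box factor known for endoderm formation in vertebrates, had 239, 576 and 522 reads (2.56-fold higher, 2.20 to 2.99), and nuclear factor, erythroid derived 2 (isotig06127), a name from a leucine zipper family that includes regulators of antioxidant genes in vertebrates, had 200, 418 and 326 (2.22-fold higher, 1.87 to 2.64). Creb3L3 (isotig22598), a membrane-bound factor released from the endoplasmic reticulum under stress in mammals, had 229, 501 and 331 (2.32-fold higher, 1.98 to 2.73). The hairy and enhancer of split names, repressors downstream of Notch, had 24, 100 and 91 reads on isotig19276 (4.42-fold higher, 2.81 to 7.22) and 17, 57 and 23 on isotig24532 (3.56-fold higher, 2.04 to 6.52). All of these were highest in deep aestivation. Those lower included E2F transcription factor 3 (isotig14576), which drives S phase genes in mammals, with 47, 15 and 18 reads, and the isotig named homeobox protein six4.2 (isotig19992), with 34, 10 and 7.

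Some signalling isotigs were higher and others lower. Dual specificity phosphatase 1-like (isotig19988), which switches off MAP kinases, had 23, 122 and 86 reads (5.63-fold higher, 3.58 to 9.21), while the kinase named extracellular signal-regulated protein kinase (isotig15861) had 181, 59 and 58 (2.89-fold lower, 2.14 to 3.95). Among ligands and their processing, ectodysplasin-A-like (isotig13595), a ligand of the tumour necrosis factor family, had 35, 167 and 59 reads (5.06-fold higher, 3.50 to 7.51), the angiopoietin-like protein (isotig23115) 11, 134 and 37 (12.9-fold higher, 6.997 to 26.5), and bone morphogenic protein 1 (isotig14688), a metalloprotease that trims procollagen, 47, 162 and 145 (3.66-fold higher, 2.63 to 5.17). Guanylate cyclase (isotig13105), which makes cyclic GMP, had 296, 3 and 57 reads. Wnt, Notch and TGF beta terms together had 7 of 40 isotigs lower and 4 higher. G protein coupled receptor signalling had 4 of 13 lower and small GTPase signalling 7 of 32, each with 0 higher. Among all isotigs with a GO term 28.2% were lower and 5.5% higher.

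Ion transport had 19 of 57 isotigs (33.3%) lower and 0 higher, beside 28.2% lower and 5.5% higher among all isotigs with a GO term. Its reads summed to 0.67 times the non-aestivation rate. The alpha subunit of sodium/potassium ATPase, the pump that uses much of a cell's ATP, had 439, 134 and 185 reads on isotig17841 (3.09-fold lower, 2.54 to 3.78), and the sum over its 2 isotigs gave a ratio of 0.50. Glra4a protein (isotig14324), a glycine receptor name, had 336, 66 and 107 (4.80-fold lower, 3.68 to 6.35), and an isotig named calmodulin (isotig18027) 132, 48 and 46, while calmodulin 2 (isotig14914), with 1905, 1602 and 3082 reads, was within 2-fold. Transporter activity had 34 of 99 (34.3%) lower and 6 higher, beside the same 28.2% and 5.5%. AQP8 (isotig14010), an aquaporin that passes water, was among the higher with 19, 76 and 41 reads (4.24-fold higher, 2.54 to 7.43). Rab11 (isotig15712), a GTPase of recycling endosomes, had 762, 290 and 317 reads (2.48-fold lower, 2.16 to 2.84).

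Cytoskeletal groups differed in their counts. The cytoskeleton as a whole had 45 of 158 isotigs lower and 4 higher, at the background of isotigs with a GO term, and the cilium 4 of 20 lower and 0 higher. Microtubule processes had 17 of 31 isotigs lower and 0 higher (-1.04). Alpha tubulin on isotig18082 had 158, 11 and 25 reads (13.5-fold lower, 7.36 to 27.7), whereas isotigs deposited as alpha-tubulin (isotig14228; 159, 108 and 233), Tubulin beta chain (isotig13326; 1231, 776 and 817) and beta-tubulin (isotig18713; 181, 299 and 534) were within 2-fold. Actin organization had 8 of 45 lower and 1 higher, with gelsolin (isotig15703), which severs actin filaments, at 541, 202 and 256 reads (2.52-fold lower, 2.14 to 2.98). Another cytoskeletal name, actin related protein 1 (isotig15746), had 301, 0 and 1 reads. Myosin heavy chain and the kinases named for myosin differed in direction. Myosin heavy chain (isotig06040) had 1198, 431 and 501 reads (2.62-fold lower, 2.34 to 2.93), but myosin light chain kinase, smooth muscle-like (isotig13077), which switches on smooth muscle myosin, had 198, 1155 and 885 (6.19-fold higher, 5.32 to 7.23). A second isotig named myosin light chain kinase (isotig13095) had 67, 237 and 132 reads (3.75-fold higher, 2.85 to 4.999), and its name summed over 2 isotigs gave 2.89.

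Defence genes were called in both directions, also within a family. Immune response terms held 18 of 67 isotigs (26.9%) lower and 9 (13.4%) higher, beside 28.2% and 5.5% among all isotigs with a GO term. Dual oxidase-A (isotig13477), which makes hydrogen peroxide at epithelial surfaces, had most reads, 1870, 2705 and 3690, a ratio of 1.53 (1.45 to 1.63). Macrophage migration inhibitory-like factor (isotig14943), a cytokine name, had 17, 72 and 41 reads (4.49-fold higher, 2.62 to 8.13), and the C-type lectin domain protein (isotig15031) 132, 437 and 248 (3.51-fold higher, 2.89 to 4.30). C-type lectin isoform 3 (isotig12249) had 89, 15 and 30 (5.59-fold lower, 3.21 to 10.4). DD104 (isotig01186), deposited as a protein upregulated upon bacterial challenge, had 601, 1159 and 1089 (2.05-fold higher, 1.85 to 2.26). Scavenger receptor cysteine-rich proteins, a large echinoderm family of pathogen receptors, were among the lower, with 117, 31 and 40 reads on isotig18237 (3.56-fold lower, 2.38 to 5.47; of 9 isotigs of that name 4 were lower and 1 higher, with a summed ratio of 0.44). Complement component 3-2 (isotig29329) had 741, 130 and 138 reads, while complement component C3 (isotig13167), with 1588, 1813 and 1582, was within 2-fold. Alpha macroglobulin (isotig16383), a protease trap, had 215, 39 and 21 (5.196-fold lower, 3.68 to 7.51; 3 isotigs summed gave 0.34).

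Of the 56 GO groups only response to oxidative stress, with 4 higher against 3 lower of 22, and cell adhesion, with 3 against 2 of 27, had more isotigs higher than lower. Both leads are of 1 isotig. That of cell adhesion was gone, at 2 against 2, when the interval had to exclude 1 or RPKM was summed over a name. With no filter it turned, at 7 against 10. That of oxidative stress was gone, at 4 against 4, with a pseudocount of 0.1 or no filter. With TMM factors the ribosome joined them, with 3 against 2. With ratios centred on matched isotigs transcription (33 against 29), transcription factor activity (16 against 10), the extracellular region (9 against 5), Wnt, Notch and TGF beta signalling (5 against 3) and protein phosphorylation (6 against 5) did so too. In cell adhesion the higher members included both isotigs of serum amyloid protein A. In oxidative stress, KLF2/4 and the erythroid derived 2 factor, both transcription factors, were its 2 higher members with most reads. The other higher members were tartrate resistant acid phosphatase 5 (isotig17828; 5, 19 and 10 reads) and a match with no informative name (isotig22437; 21, 43 and 24). The 3 lower members were histone deacetylase 1, a mitochondrial lon protease-like protein (isotig16583; 17, 4 and 5) and a hypothetical protein (isotig20901; 28, 4 and 18). The superoxide dismutases and peroxiredoxins of the list, singled out after their values were seen, were within 2-fold. Copper/zinc superoxide dismutase-like (isotig17129) had 154, 225 and 180 reads, manganese superoxide dismutase (isotig14099) 144, 106 and 132 and peroxiredoxin-5 (isotig14528) 173, 152 and 205. The thioredoxin-dependent peroxide reductase (isotig17856), with 30, 14 and 15, lay just inside the threshold. Apoptosis terms had 46 of 165 isotigs lower and 9 higher, at the background of isotigs with a GO term. Its 2 leading higher members were the MAP kinase phosphatase above and ChaC homolog 1 (isotig14460), which degrades glutathione in mammals, with 13, 51 and 47 reads (4.16-fold higher, 2.23 to 8.34).

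By level, the 15 named isotigs that gained most RPKM were led by KLF2/4, from 88.7 to 776 RPKM, with 507 in arousal, then Creb3L3, from 385 to 894 RPKM, with 544. Caprin-2-like (isotig17144), an RNA-binding protein name, went from 87.3 to 440 RPKM, with 414 in arousal (5.05-fold higher, 3.99 to 6.44). An ependymin-related protein (isotig07194), Sox17-alpha, the methionine cycle enzymes, the smooth muscle-like kinase, DD104, the C-type lectin domain protein and cholesterol 24-hydroxylase-like, given above or below, were also in this set. The remaining ones were the angiopoietin-like protein, serum amyloid protein A (isotig08093; 1, 162 and 0 reads, over 18% of its length, with a summed ratio of 106 over 2 isotigs) and lactase-phlorizin hydrolase (isotig08881; 32, 540 and 290 reads), a glycosidase name.

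**Figure D4:**
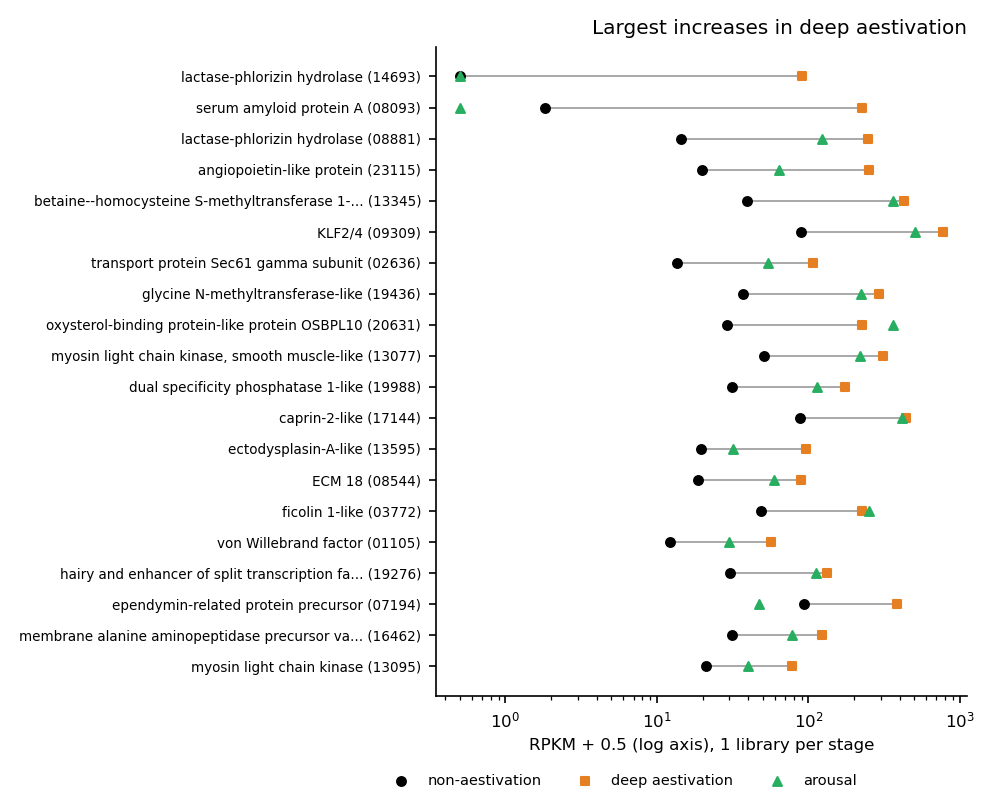
RPKM + 0.5 on a logarithmic axis in non-aestivation (circles), deep aestivation (squares) and arousal (triangles), 1 library each, for the 20 named isotigs with the largest increases among those with at least 100 reads in deep aestivation, isotig numbers in brackets. Arousal lies between the other 2 stages for most of them. It lies above deep aestivation for the oxysterol-binding protein-like and ficolin 1-like isotigs, and at or below non-aestivation for isotig14693 of lactase-phlorizin hydrolase, serum amyloid protein A and the ependymin-related protein.

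Further down the same ranking, ECM 18 (isotig08544), a sea urchin matrix protein name, had 38, 175 and 125 reads (4.89-fold higher, 3.42 to 7.14), with 2.31 over the 2 isotigs of the name. Ficolin 1-like (isotig03772), a recognition lectin name, had 94, 415 and 501 reads, and of its 13 isotigs 5 were higher and 2 lower, with a summed ratio of 1.56. Von Willebrand factor (isotig01105), an adhesive glycoprotein of vertebrate blood, had 75, 335 and 192 reads (4.74-fold higher, 3.68 to 6.17). Those reads lay on about 2% of its 6778 bases. Membrane alanine aminopeptidase (isotig16462), a cell surface peptidase, had 33, 123 and 85 reads over 90% of its length in deep aestivation (3.95-fold higher, 2.67 to 5.998).

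By level, the 15 named isotigs that lost most RPKM were led by complement component 3-2, from 3075 to 572 RPKM, with 560 in arousal, and fibrillar collagen (isotig20045), a main fibre of connective tissue, from 2249 to 825 RPKM, with 964. Low density lipoprotein-related protein 1B (isotig21129), an endocytic receptor name, went from 1287 to 312 RPKM, with 579 in arousal, and its covered length went from 98.57% to 22.86%. A Kazal-type protease inhibitor (isotig18647) went from 1467 to 510 RPKM, with 6.94 in arousal, and hemicentin-1 (isotig19746), a matrix protein, from 789 to 71.9, with 14.0. Cyclophilin A (isotig10281), a folding isomerase, went from 1124 to 513 RPKM and stood at 879 in arousal. Anionic trypsin-1 (isotig13029), a digestive protease, went from 1037 to 486, with 327 in arousal, and TMM factors put it within 2-fold.

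The rest of these 15 were cubilin-like (isotig25069), an endocytic receptor name, from 688 to 279 RPKM with 105 in arousal (its 2 isotigs summed gave a ratio of 0.59), heat shock cognate 70 (isotig28263), from 638 to 266 with 285, and calreticulin-like, S17, heterogeneous nuclear ribonucleoprotein A/B, rab11 and both ATP synthase subunits described above. In arousal the ribonucleoprotein stood at 1291 RPKM, above its 801 in non-aestivation, and S17 at 808 against 877.

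**Figure D5:**
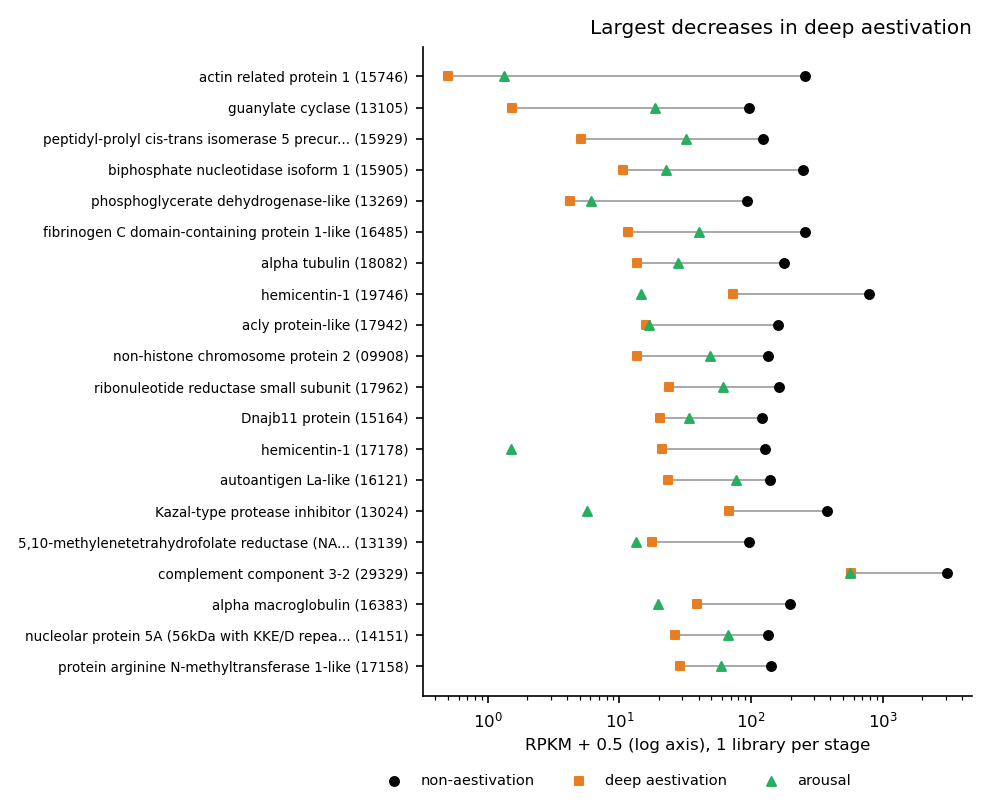
RPKM + 0.5 on a logarithmic axis in non-aestivation (circles), deep aestivation (squares) and arousal (triangles), 1 library each, for the 20 named isotigs with the largest decreases among those with at least 100 reads in non-aestivation. Arousal lies above deep aestivation for most, and below it for both hemicentin-1 isotigs, the Kazal-type inhibitor, alpha macroglobulin, the methylenetetrahydrofolate reductase and, by little, complement component 3-2.

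By fold, bisphosphate nucleotidase isoform 1 (isotig15905), deposited as biphosphate nucleotidase, which clears a by-product of sulfation, had 283, 11 and 26 reads (24.2-fold lower, 13.3 to 49.1), and fibrinogen C domain-containing protein 1-like (isotig16485), a recognition protein name, had 269, 11 and 43 (23.0-fold lower, 12.7 to 46.7; 4 isotigs summed gave 0.07). The second hemicentin-1 isotig (isotig17178) had 124, 19 and 1 reads (both isotigs summed gave 0.10), and a second Kazal-type inhibitor (isotig13024) 141, 24 and 2 (5.54-fold lower, 3.57 to 8.93), with 0.33 over both isotigs of that name. For both proteins the reads were fewer again in arousal.

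A small set of transcripts was present in 1 library and had no read in the other. In all, 12 isotigs had 50 or more reads in 1 of the libraries and 0 in the other, 11 of them with the reads in non-aestivation. The most abundant, named GL12416-like isoform 2 (isotig14370) after an uncharacterised fly gene and carrying microtubule terms, had 658, 0 and 0 reads over 99% of its length, at least 207-fold lower. Actin related protein 1, at least 94.6-fold lower, and an isotig with no protein match (isotig15743; 275, 0 and 1 reads), at least 86.4-fold lower, were next. Complement factor H-like (isotig27723), a complement regulator name, had 67, 0 and 0 reads, at least 21.0-fold lower, while the 3 isotigs of that name summed to a ratio of 0.24. Bindin, mitochondrial creatine kinase, the P0 isotig, a conserved hypothetical protein (isotig06728; 64, 0 and 9) and 3 isotigs with no match (isotig19898, isotig13196 and isotig13764; 96, 72 and 53 reads in non-aestivation and 0 in both other libraries) made up the rest of the lower ones. The only one present in deep aestivation alone was lactase-phlorizin hydrolase on isotig14693 (0, 119 and 0 reads, at least 42.1-fold higher), and both isotigs of that name summed gave a ratio of 21.9.

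The largest gains in level belonged to isotigs without any protein match. Isotig29200 (280 bases) went from 13325 to 33844 RPKM, with 50386 in arousal, and isotig26827 (434 bases) from 1549 to 9836, with 4601 (6.35-fold higher, 5.83 to 6.92). Isotig10156 had 57, 2515 and 221 reads, a 46.8-fold difference (36.0 to 62.0) over 43% of its 952 bases. Isotig14639 had 106, 1802 and 1404 reads over 99% of 1508 bases (18.04-fold higher, 14.8 to 22.2), and isotig16942 had 946, 2147 and 2835. The first 2 and the last were also high in non-aestivation, whereas isotig10156 and isotig14639 were not. Those that lost most RPKM were isotig28049 (477, 183 and 237 reads), isotig19495 (623, 26 and 72, 22.6-fold lower, 15.3 to 34.8), isotig12993 (349, 48 and 57), isotig28665 (318, 135 and 135) and isotig27868 (265, 60 and 0). What these transcripts encode is not annotated in the files.

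Isotigs that share a protein name did not always move together. Of 386 names with 2 or more isotigs compared, 15 had isotigs called in both directions, and 2 of these had 50 or more reads behind every called isotig. Ependymin-related protein, a secreted glycoprotein family of deuterostomes, had 199, 773 and 103 reads on isotig07194 (4.12-fold higher, 3.52 to 4.84) and 954, 243 and 218 on isotig07195 (3.70-fold lower), and the sum gave a ratio of 0.93. The vesicle-associated protein VAP-1 had 215, 444 and 466 reads on isotig07540 (2.19-fold higher, 1.86 to 2.59) and 189, 43 and 38 on isotig13075 (4.14-fold lower), with a summed ratio of 1.28. The isotigs named oncoprotein had 61, 151 and 135 reads on isotig10260, 2.63-fold higher, and 477, 258 and 524 on isotig10259, with a summed ratio of 0.81. Reads that match several isotigs equally well are not in a unique count, and the part of this in such pairs was not tested.

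Covered length was checked for the called isotigs with most reads. Of 539 called isotigs whose higher library held 100 or more reads, 25 were covered over less than 25% of their length there, 14 of them higher and 11 lower. The median covered length was 87.13% for the higher and 91.07% for the lower isotigs. Those with narrow coverage included von Willebrand factor, ficolin 1-like, ECM 18, serum amyloid protein A and one of the myosin heavy chain isotigs (isotig06041). Of the 3 isotigs named H3.3 histone, isotig01383, with 52, 150 and 103 reads, and isotig01384, with 41, 144 and 170, were among them as well.

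Markers of cell types that a sample of respiratory tree could hold were mixed. The lists were drawn from isotigs with an informative protein name, of which 26.1% were lower and 7.49% higher. Of 25 muscle isotigs 5 (20%) were lower and 1 (4%) higher, and their sum was 3722, 3293 and 2735 reads per 1e6 reads of the library. Tropomyosin (isotig02768), with 176, 172 and 219 reads, and titin-like (isotig13411), with 762, 1101 and 809, were within 2-fold. The lower ones included both isotigs of myosin heavy chain (1198, 431 and 501 reads on isotig06040; 155, 60 and 60 on isotig06041) and calponin 1 (isotig01116; 62, 27 and 39). Of 12 cilia isotigs 1 was lower and 1 higher, with sums of 295, 240 and 161. Of 39 coelomocyte isotigs 12 were lower and 7 higher, with sums of 5269, 4248 and 3674. That list is a match on names, not a measure of these cells, and 9 of its isotigs share 1 scavenger receptor name. It also took in malectin-like (isotig18745; 34, 8 and 5 reads) and a complement 1q binding protein (isotig07810; 10, 4 and 14), both lower. Vesicular mannose-binding lectin (isotig16087; 123, 63 and 61), within 2-fold, was in it too. Of 9 nervous system isotigs 1 was lower and 1 higher, with sums of 651, 592 and 660, and enterin neuropeptide (isotig22099) had 81, 154 and 152 reads. The digestive list had 5 of 11 higher and 1 lower, with sums of 2572, 3323 and 4907. Most of its reads lay on trypsin-like serine protease (isotig13602), with 1808, 2433 and 4306 reads, a ratio of 1.43 (1.34 to 1.52), within 2-fold. Of the 5 higher members 4 were 3 inter-alpha-trypsin inhibitor isotigs and neurotrypsin (isotig14143; 9, 62 and 37), which match the word trypsin and are not digestive enzymes. The remaining one was carboxypeptidase A-like (isotig13961), with 48, 120 and 101 reads. The part of these cell types in the results above was not tested.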

How the data were processed

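The labels' protocols describe respiratory tree RNA enriched on oligo(dT) beads, fragmented and copied with random hexamers, with no mention of strand. The submitters' processing notes name CASAVA 1.5. The aligner and its settings are not given in the sources used here. The authors deposited, per isotig and library, the count of uniquely mapped reads, the percent of the isotig covered, the RPKM (count per kilobase and 1e6 mapped reads, per the file headers), GO terms and the best protein match. All RPKM values were recomputed from the counts within a relative tolerance of 1e-09. A missing isotig was taken as 0.

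Calls are on log2(RPKM + 0.5), at 2-fold. Ratios of read rates have exact (conditional binomial, Clopper-Pearson) 95% intervals, and 0 reads were set to a floor of 3 for bounds. Reads carry no molecular identifiers, so intervals and floors cover counting error only. Members, GO groups and marker lists were chosen with earlier results of these data known. Named isotigs are the 15 with the largest RPKM change and the 20 with the largest fold at 100 or more reads, per direction, and the leading members of each group at 50 or more reads. Isotigs with 50 or more reads against 0 and the 5 unmatched with the largest change per direction were added. Others were chosen after their values were seen: aconitase, isotig18908, isotig23160, isotig11055, isotig06913, isotig13185, E2F3, six4.2, tubulin and superoxide dismutase isotigs, DC2's contrast with DAD-1, the H3.3 isotigs and marker examples. Calcium ion binding matched no isotig. Genes could not be joined to the reference gene table, so no sequence or position is given.

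Alternatives used edgeR 4.0.16 (TMM) and DESeq2 1.42.0 factors under R 4.3.3. Other steps used Python 3.11.15, numpy 2.4.6, pandas 2.3.3, scipy 1.17.1 and matplotlib 3.10.9. The rule was also run on simulated counts that hold counting error only. Those counts have no variation between animals or library preparations, so they cannot show how many calls such variation would give.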

Additional observations from a re-analysis of the deposited data

How the results depend on the processing

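The counts of 1430 higher and 2029 lower isotigs stayed within 1.5 times under several settings (1157 to 1688 higher, 1636 to 2107 lower). These were pseudocounts of 0.1 and 1, TMM and median-of-ratios factors, and totals without each library's 10 most abundant isotigs. The others were an added demand that the interval exclude 1, and RPKM summed over a protein name. They were 3527 and 5701 with no filter, 540 and 529 at 100 or more reads, and 315 and 477 at 4-fold. Centred on isotigs with a protein match, chosen after seeing the data, they were 2337 and 1266, and higher isotigs made up 64.9% of calls against 41.3%. Pseudocounts moved the share lower of 0 of 60 lists beyond its interval, TMM and median-of-ratios factors of 2 each, no filter of 5, a minimum of 100 reads of 14 and centring of 26. Of 183 named isotigs, TMM factors moved 15 beyond their interval, median-of-ratios factors 16 and totals without the most abundant isotigs 2. Both pseudocounts kept all 183. Only isotigs with an informative name could have RPKM summed over that name. Of these 143 stayed within their interval, 16 moved beyond it and 2 reversed. The 2 were isotig07194, to a log2 ratio of -0.10, and isotig10260, to -0.20. The summed ratios given in the Results are of reads, not of RPKM. No paired analysis was possible because each stage has 1 library. Depth limits isotigs near 20 reads, and the differences between animals or library preparations cannot be measured.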
